A study of Mus musculus with 8 samples.

Results

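The genes described here make, remove, bind or respond to retinoic acid in the trunk of the mouse embryo. They are 10 genes, chosen by name: the retinaldehyde dehydrogenases Aldh1a2 and Aldh1a3, the cytochrome P450 enzymes Cyp26a1, Cyp26b1 and Cyp26c1, the binding proteins Crabp1 and Crabp2, and the receptors Rara, Rarb and Rarg. They were taken from 36511 genes or transcripts on the array as every non-control probe that the array's own annotation gives one of these names. Neural tube and paraxial tissue, the mesoderm beside the neural tube, had been cut out separately by laser capture microdissection from C57BL/6 embryos at E10.5. The 2 wild-type embryos and the 2 mutant embryos each gave both tissues, so 8 arrays form 4 groups of 2. The mutants were labelled "fl/fl; cre/o" in a study of conditional loss of Geminin, the protein that holds back a second round of DNA replication in a cell cycle and also binds chromatin regulators. The driver of the Cre recombinase and the deleted part of the gene are not given in the sources used here. The wild-type label does not say whether those embryos carried Cre or the floxed allele. Each array therefore stands for 1 tissue of 1 embryo, and tissue differences can be taken within an embryo while genotype differences lie between embryos.

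Retinoic acid is a diffusible signal made from vitamin A. Retinol is first oxidised to retinaldehyde, and retinaldehyde dehydrogenases then oxidise that to retinoic acid. Aldh1a2 is the main such enzyme of the somites, from which retinoic acid reaches the neighbouring spinal cord. CYP26 enzymes oxidise retinoic acid to inactive products and so shape where the signal is found, CRABP proteins carry it inside the cell, and the RAR receptors, paired with RXR, bind DNA and switch target genes when retinoic acid is bound. In the developing spinal cord the signal promotes neuronal differentiation and patterning, and Rarb and Cyp26a1 are textbook direct targets of the receptors.

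The promoters of those 2 direct targets are shown because, of the members with a promoter window, they alone held the classical receptor motif, a direct repeat of 2 hexamers 5 bases apart. The search took AGGTCA (the consensus) or a variant of it, either AGTTCA (one variant), GGGTCA (another variant) or GGTTCA (the last variant), for each hexamer, in the same direction, on both strands, in RefSeq promoter windows of mouse build GRCm38.p6 that run from 250 bases before to 50 bases after a gene's start. The windows held 8 of the 10 members, in 12 windows. The last 120 bases before the start are printed on the gene's strand, with the hexamers in capitals.
Rarb, chr14:16575477-16575596, minus strand: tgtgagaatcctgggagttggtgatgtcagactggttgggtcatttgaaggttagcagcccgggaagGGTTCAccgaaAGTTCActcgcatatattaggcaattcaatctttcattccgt
Cyp26a1, chr19:37697688-37697807, plus strand: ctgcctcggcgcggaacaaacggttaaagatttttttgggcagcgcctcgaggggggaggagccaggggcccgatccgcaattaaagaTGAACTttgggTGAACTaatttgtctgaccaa
The Rarb match reads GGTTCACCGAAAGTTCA on the gene's strand and lies 53 to 37 bases before the start. The Cyp26a1 match reads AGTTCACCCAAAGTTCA on the other strand and lies 32 to 16 bases before the start. Such a repeat was found in 32 of 32851 promoter windows (0.0974%). The same hexamers 2 bases apart were found in 0.268% of windows and 1 base apart in 0.222%, and in no window of a member. A match is a description of these letters, and whether a receptor was bound there was not measured in these arrays.

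Each member was read by a probe of 60 bases, except Rara and Rarb, which had 2 probes each, so that 12 probes covered the 10 genes. A probe was kept if the scanner software called it well above background in each replicate of any group. Of the 12, 11 were kept and 1, that of Aldh1a3, was not. Cyp26a1 and Cyp26c1 are neighbours on chromosome 19 and encode related enzymes, so their probes are shown to make clear that they are separate sequences.
Cyp26a1 probe, mm9 chr19:37775566-37775625, plus strand: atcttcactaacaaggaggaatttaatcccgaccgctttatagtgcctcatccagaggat
Cyp26c1 probe, mm9 chr19:37767436-37767495, plus strand: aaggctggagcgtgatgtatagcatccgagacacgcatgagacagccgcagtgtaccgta
No pair of probes of different members matched at more than 26 of 60 positions in any ungapped placement. In mm9 the other probes lie at chr9:71143931-71143990 (Aldh1a2), chr7:73535785-73535844 (Aldh1a3), chr6:84521952-84522011 (Cyp26b1), chr9:54616192-54616251 (Crabp1) and chr3:87757207-87757266 (Crabp2). Those of the receptors lie at chr11:98835350-98835409 and chr11:98836197-98836256 (Rara), chr14:17264648-17264707 and chr14:17263367-17263426 (Rarb), and chr15:102065371-102065430 (Rarg). An annotation of that build was not used here, so exons are not assigned.

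Values below are scaled log2 signals: log2 of the scanner's processed signal, shifted so that the 75th percentile is the same on every array. A difference of 1 is a doubling of signal. Signals of different probes are not compared with each other. The share of probes well above background was 71.48% to 77.95% per array, and all 8 arrays shared 1 slide and 1 scan date. Markers fitted the labelled tissues: 14 of 14 neural progenitor genes tested passed as higher in neural tube and 11 of 14 somite and paraxial mesoderm genes as lower, in the mean over genotypes. The summed neural progenitor signal was 17.87 to 18.11 in neural tube and 16.76 to 17.12 in paraxial tissue (log2). Geminin itself (Gmnn) read 12.35 and 12.24 in wild-type neural tube against 12.11 and 11.80 in mutant neural tube, and 12.20 and 11.88 in wild-type paraxial tissue against 11.42 and 11.39 in mutant paraxial tissue. The mutant arrays were the lower ones in both tissues, by -0.35 ± 0.25 (SE; limma adjusted p = 0.921) and -0.63 ± 0.25 (adjusted p = 0.996). Whether this probe lies in the deleted part is not given in the sources used here, so it does not check the labels. In bulk tissue, fewer cells of a type and less RNA per cell cannot be told apart.

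The clearest pattern in the pathway was a difference between tissues. In the mean over genotypes, Rarg and the synthesis enzyme Aldh1a2 were lower in neural tube than in paraxial tissue, by 3.73-fold and 1.97-fold, and Crabp2 and Rara were higher, by 1.78-fold and 1.39-fold. These 4 of the 9 members tested passed an adjusted p of 0.05, 2 in each direction, against a background of 11.9% of all 28939 genes tested (5.94% higher and 6.01% lower). The direction was the same in each of the 4 embryos for these genes and also for Crabp1, which did not pass. These directions come from the values that were tested and are a description, not further support. The share of all genes with the same direction in each embryo was not counted. Between genotypes no member passed by limma in either tissue, beside 0% of all genes. Cyp26b1 read higher in mutant neural tube than in wild type by 7.09-fold, the largest genotype difference of a member in that tissue, and in mutant paraxial tissue by 2.97-fold, with no overlap of the arrays.

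**Figure D1:**
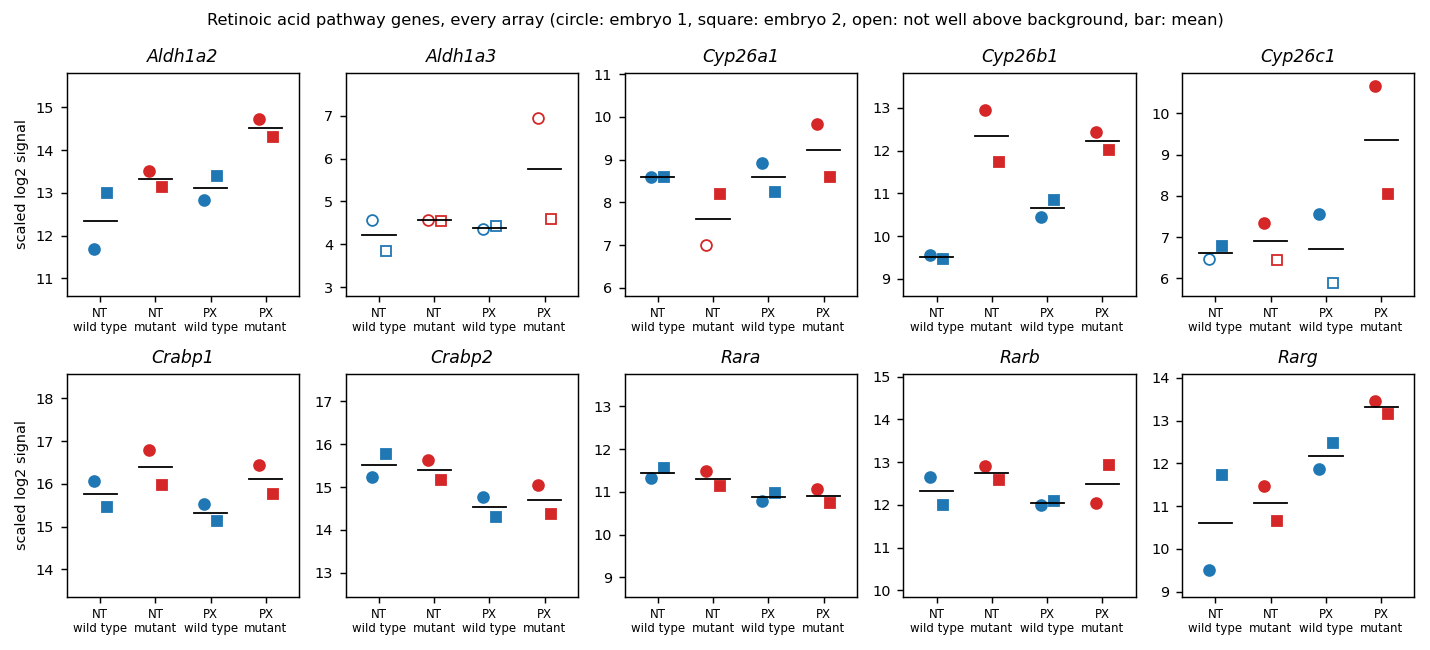
Scaled log2 signal (y axis) of the 10 members on each array, by tissue (NT, neural tube; PX, paraxial tissue) and genotype; circles are embryo 1 and squares embryo 2 of a genotype, open symbols were not well above background, and black bars are group means. Each panel has its own y axis, and levels are not comparable between panels. Cyp26b1 is the panel in which both mutant groups (11.74 to 12.95) lie above both wild-type groups (9.48 to 10.86).

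Among the synthesis enzymes, Aldh1a2 followed tissue and differed between genotypes without passing. It read 11.68 and 13.01 in wild-type neural tube, 13.51 and 13.13 in mutant neural tube, 12.83 and 13.39 in wild-type paraxial tissue, and 14.72 and 14.30 in mutant paraxial tissue (embryo 1, then embryo 2). Mutant paraxial tissue stood above the other groups with no overlap, while the mutant neural tube, wild-type paraxial and wild-type neural tube ranges overlapped their neighbours in that order. Within embryos the neural tube was lower by -1.15 and -0.38 in wild type and by -1.21 and -1.17 in mutants. The mean tissue difference was -0.98 ± 0.20 (SE; limma adjusted p = 0.0217), from -0.76 ± 0.28 in wild type (adjusted p = 0.216) and -1.19 ± 0.28 in mutants (adjusted p = 0.0565). The mutant minus wild-type difference was 0.97 ± 0.44 in neural tube (limma adjusted p = 0.921) and 1.40 ± 0.44 in paraxial tissue (adjusted p = 0.996), and in both tissues each mutant array read above each wild-type array.

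Aldh1a3, which makes retinoic acid mainly in head and sensory structures, was not well above background on any of the 8 arrays, and no fold is given for it. Its signal lay between 3.85 and 4.59 on 7 arrays and at 6.95 in mutant paraxial tissue of embryo 1. The lowest signal counted as well above background was 7.13 on that array, so the higher reading is a bound too.

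Cyp26b1, the retinoic acid-degrading enzyme known from limb, hindbrain and germ cells, was the member that differed most between genotypes in neural tube. It read 9.56 and 9.48 in wild-type neural tube and 12.95 and 11.74 in mutant neural tube. In paraxial tissue it read 10.46 and 10.86 in wild type and 12.45 and 12.02 in mutants. All 4 mutant arrays were above all 4 wild-type arrays; in wild type the neural tube lay below paraxial tissue in both embryos, and in mutants the 2 tissues overlapped.

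The genotype difference of Cyp26b1 was 2.83 ± 0.43 in neural tube (95% interval 1.81 to 3.84; limma adjusted p = 0.583), the 16th smallest p of 28939 genes before adjustment. In paraxial tissue it was 1.57 ± 0.43 (0.55 to 2.59; limma adjusted p = 0.996), the 168th smallest. Taken between embryos of the same slide row, the neural tube differences were 3.39 and 2.26 and the paraxial differences 1.99 and 1.16. The tissue difference was -1.14 ± 0.27 in wild type (limma adjusted p = 0.0831) and 0.11 ± 0.27 in mutants (adjusted p = 0.881). The difference between these 2 values, tested directly, was 1.26 ± 0.38 and did not pass (limma adjusted p = 0.89).

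Cyp26a1, the CYP26 enzyme of the tail bud and a direct target of the receptors, did not read higher in mutant than in wild-type neural tube. It read 8.59 and 8.59 in wild-type neural tube and 7.01 and 8.20 in mutant neural tube, where the array of embryo 1 was not well above background. It read 8.92 and 8.24 in wild-type paraxial tissue and 9.83 and 8.60 in mutant paraxial tissue. Both mutant neural tube arrays were below both wild-type ones, and in paraxial tissue the genotypes overlapped. The genotype difference was -0.98 ± 0.80 in neural tube (limma adjusted p = 0.921) and 0.63 ± 0.80 in paraxial tissue (adjusted p = 0.996). In mutants the neural tube was below paraxial tissue by -1.61 ± 0.50 (limma adjusted p = 0.127), and in wild type the 2 tissues read 0.01 ± 0.50 apart (adjusted p = 0.996).

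Cyp26c1, the third enzyme of the family, was near the limit of detection outside mutant paraxial tissue. It read 6.46 and 6.79 in wild-type neural tube, 7.33 and 6.45 in mutant neural tube, and 7.56 and 5.88 in wild-type paraxial tissue, with 1 of 2 arrays well above background in each of these groups. In mutant paraxial tissue it read 10.68 and 8.03, both well above background and above every other array. The probe passed the filter through that group alone, so its differences against that group are given as a description and are left out of the counts below. The mutant minus wild-type difference in paraxial tissue was 2.63 ± 1.01 (limma adjusted p = 0.996) and in neural tube 0.27 ± 1.01 (adjusted p = 0.982). In mutants the neural tube was lower by -2.46 ± 0.64 (limma adjusted p = 0.0758). Because part of these signals were at background, the size of each of these differences is imprecise.

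Of the 2 cellular retinoic acid-binding proteins, Crabp2 was higher in neural tube. Crabp2, which hands retinoic acid to nuclear receptors, read 15.24 and 15.78 in wild-type neural tube and 15.64 and 15.17 in mutant neural tube, against 14.77 and 14.30 in wild-type and 15.04 and 14.37 in mutant paraxial tissue. Every neural tube array was above every paraxial array. The neural tube was higher within embryos by 0.47 and 1.47 in wild type and by 0.60 and 0.80 in mutants, and the mean difference was 0.83 ± 0.18 (SE; limma adjusted p = 0.0303). Between genotypes Crabp2 differed by -0.10 ± 0.41 in neural tube (95% interval -1.08 to 0.87) and 0.17 ± 0.41 in paraxial tissue (-0.81 to 1.14), and quantile and cyclic loess scaling turned the sign of the second value.

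Crabp1, which binds retinoic acid in hindbrain, neural crest and dorsal neural tube cells, read 16.08 and 15.45 in wild-type neural tube and 16.80 and 15.97 in mutant neural tube. In paraxial tissue it read 15.52 and 15.14 in wild type and 16.45 and 15.77 in mutants. Each embryo had the higher reading in neural tube, by 0.56 and 0.32 in wild type and by 0.35 and 0.20 in mutants. The mean of 0.36 ± 0.16 did not pass (limma adjusted p = 0.211). The mutant values exceeded the wild-type values by 0.62 ± 0.35 in neural tube, where the arrays overlapped, and by 0.78 ± 0.35 in paraxial tissue, where they did not (limma adjusted p = 0.921 and 0.996).

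**Figure D2:**
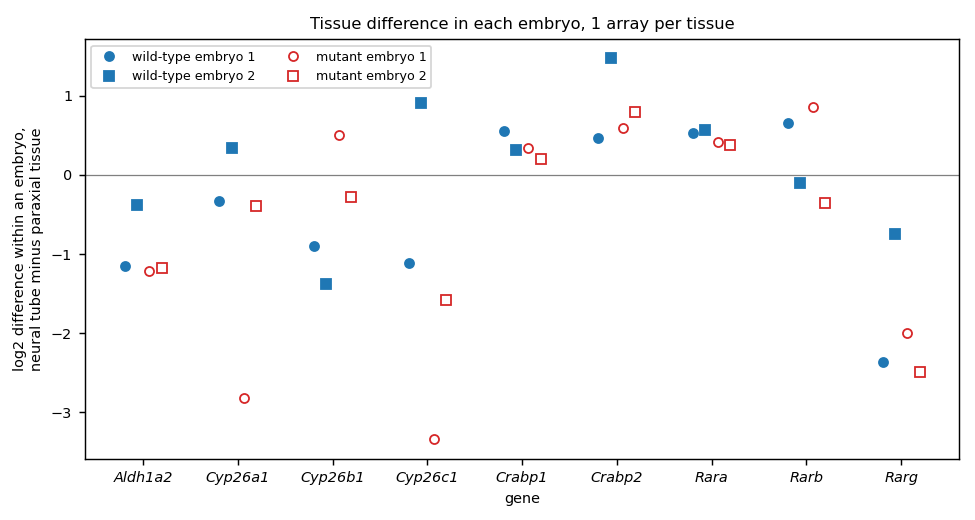
Neural tube minus paraxial tissue within each embryo (y axis, log2 units) for the 9 members tested; blue filled symbols are wild-type and red open symbols mutant embryos, circles embryo 1 and squares embryo 2, with 1 array per tissue. All 4 embryos lie below 0 for Aldh1a2 and Rarg and above 0 for Crabp1, Crabp2 and Rara, while the other 4 genes have embryos on both sides.

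The receptors differed from each other. Rarg, the receptor of mesenchyme and skin, had the largest tissue difference of the members in the mean over genotypes. It read 9.51 and 11.72 in wild-type neural tube and 11.47 and 10.66 in mutant neural tube, against 11.87 and 12.47 in wild-type and 13.47 and 13.15 in mutant paraxial tissue. Every neural tube array was below every paraxial array, although the 2 wild-type neural tube arrays were far apart (SD 1.57). Somite and paraxial mesoderm genes, each relative to its mean over the arrays, averaged -1.71 and -0.33 on these 2 arrays. There Rarg and Aldh1a2 were both higher in embryo 2. On the mutant neural tube arrays these markers averaged -1.21 and -0.63, and Rarg and Aldh1a2 were both lower in embryo 2. Their part in the Rarg and Aldh1a2 values was not tested.

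Within embryos the neural tube was below paraxial tissue for Rarg by -2.36 and -0.75 in wild type and by -2.0 and -2.49 in mutants. The mean difference was -1.90 ± 0.32 (SE; limma adjusted p = 0.0116). It also passed within mutants (-2.24 ± 0.45; adjusted p = 0.0366), where 5.84% of all genes passed, but not within wild type (-1.55 ± 0.45; adjusted p = 0.135). The genotype difference in tissue contrast, tested directly, was -0.69 ± 0.64 (limma adjusted p = 0.966). Mutant paraxial tissue exceeded wild type by 1.14 ± 0.71 with no overlap (limma adjusted p = 0.996), and in neural tube the difference was 0.45 ± 0.71 (adjusted p = 0.945).

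Rara is the broadly expressed receptor. Its brighter probe read 11.33 and 11.56 in wild-type neural tube, 11.48 and 11.13 in mutant neural tube, 10.80 and 10.98 in wild-type paraxial tissue, and 11.07 and 10.74 in mutant paraxial tissue. The neural tube was higher in each embryo, by 0.53 and 0.57 in wild type and 0.41 and 0.38 in mutants. The mean was 0.48 ± 0.11 (SE; limma adjusted p = 0.0337), and the gene's other probe gave a similar 0.47 ± 0.18 with an adjusted p of 0.148 when every probe was tested on its own. Its genotype differences were -0.14 ± 0.24 in neural tube (95% interval -0.71 to 0.44), where the other probe gave 0.05, and 0.02 ± 0.24 in paraxial tissue (-0.56 to 0.59).

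Rarb, the receptor induced by retinoic acid whose promoter is printed above, did not pass in any comparison. Its brighter probe read 12.66 and 11.99 in wild-type neural tube, 12.92 and 12.57 in mutant neural tube, 12.01 and 12.10 in wild-type paraxial tissue, and 12.05 and 12.92 in mutant paraxial tissue. On this probe all 4 groups overlapped their neighbours in level. The mean tissue difference was 0.27 ± 0.22 (limma adjusted p = 0.502) with 2 embryos on each side of 0. The other probe gave 0.50 ± 0.17 (adjusted p = 0.12), and on it the wild-type neural tube (11.36 and 11.33) lay above wild-type paraxial tissue (10.66 and 10.68). On the other probe the mutant arrays also lay above the wild-type ones without overlap, at 11.50 to 11.60 in neural tube and 10.77 to 11.67 in paraxial tissue, with genotype differences of 0.20 ± 0.39 and 0.56 ± 0.39 (limma adjusted p = 0.951 and 0.994). The genotype difference by the brighter probe was 0.42 ± 0.49 in neural tube and 0.44 ± 0.49 in paraxial tissue (limma adjusted p = 0.929 and 0.996).

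**Figure D3:**
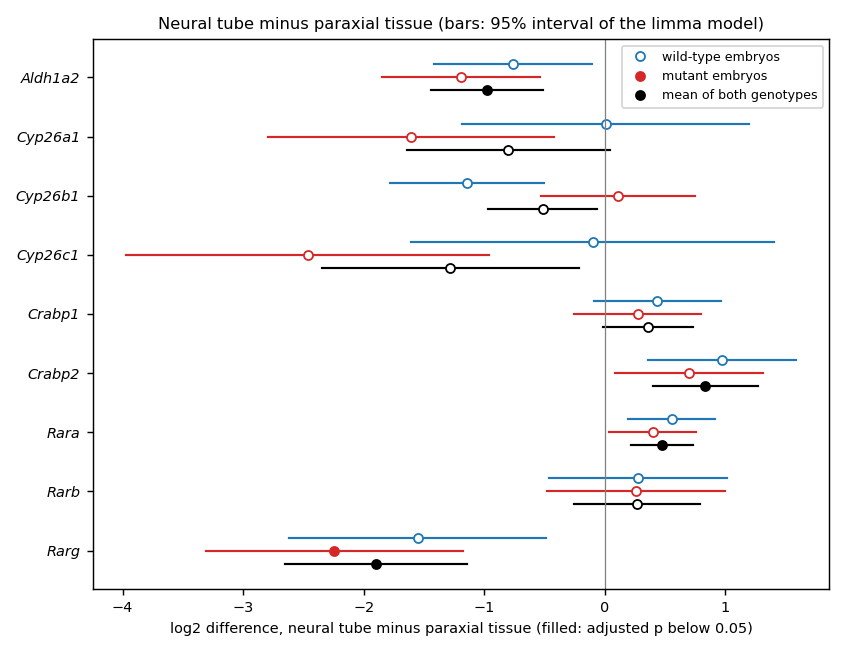
Neural tube minus paraxial tissue (x axis, log2 units) for the 9 members tested, in wild-type embryos, in mutant embryos and in the mean of both genotypes; bars are 95% intervals of the limma model and filled points passed. Rarg is lowest at -1.90 in the mean and Crabp2 highest at 0.83.

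Counted over the 8 members tested other than Cyp26c1, no tissue difference passed within wild type alone, where 2.45% of all genes passed by limma (0.771% higher and 1.68% lower in neural tube), and 5 of 8 had an unadjusted p below 0.05 against 17.9% of all genes. Within mutants 1 of 8 passed, Rarg, as lower, against 3.16% of all genes in that direction, and 5 of 8 had an unadjusted p below 0.05 against 19.7%. The arrays of the 2 tissues did not overlap for 4 members in wild type, against 35.2% of all genes, and for 5 in mutants, against 36.2%. In wild type 2 of these were higher (18.3% of all genes) and 2 lower (16.9%) in neural tube. In mutants 2 were higher (16.6% of all genes) and 3 lower (19.6%). Members reading higher in neural tube, whatever their p, numbered 5 of 8 in wild type against 50.5% of all genes, 5 of 8 in mutants against 45.9%, and 4 of 8 in the mean against 47.1%. The median over these 8 was 0.14 in wild type, 0.18 in mutants and -0.12 in the mean over genotypes, beside medians over all genes of 0.01, -0.03 and -0.02.

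Whether the 4 mean tissue differences passed depended on the mutant arrays and on the embryo as a block. For Rarg the adjusted p was 0.0745 without mutant neural tube array 2, 0.0525 and 0.0633 without mutant paraxial arrays 1 and 2, and 0.0726 and 0.112 without mutant embryos 1 and 2. Leaving out any 1 mutant array or mutant embryo also ended the call of Aldh1a2 (0.0887 to 0.144), Rara (0.126 to 0.198) and Crabp2 (0.0719 to 0.176). Rara was further lost without wild-type embryo 1 (0.114) or 2 (0.191) and Crabp2 without wild-type embryo 2 (0.181). Without the embryo as a block none passed (Rarg 0.119, Crabp2 0.174, Aldh1a2 0.224, Rara 0.276). The call of Rarg within mutants was lost without any 1 mutant array or embryo (0.152 to 0.36). The sign of each of these differences stayed the same in all of these fits.

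Between genotypes no member passed, and the members read mostly above wild type in mutant paraxial tissue. In neural tube 0 of 9 members passed, as did 0% of all genes by limma; 1 of 8 other than Cyp26c1, Cyp26b1, had an unadjusted p below 0.05, against 3.63% of all genes. There the arrays did not overlap for Aldh1a2 and Cyp26b1, higher in mutants, and for Cyp26a1, lower, against 31.9% of all genes in either direction. There 5 of 8 lay above 0, against 49.2% of all genes. In paraxial tissue 0 of 9 passed, beside 0% of all genes, and of the 8 other than Cyp26c1, Cyp26b1 and Aldh1a2 had an unadjusted p below 0.05, against 3.36%. These 8 lay above 0 against 53.5% of all genes, and 4 did not overlap (Cyp26b1, Aldh1a2, Rarg and Crabp1), all higher in mutants, against 22.6% of all genes in that direction. The median over the 8 was 0.43 in neural tube and 0.71 in paraxial tissue, beside -0.01 and 0.03 over all genes. The smallest value in paraxial tissue was that of Rara (0.02), and quantile and cyclic loess scaling put Crabp2 below 0 there. Scaling each array to its median in place of its 75th percentile moved the median over all genes in paraxial tissue to 0.12.

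**Figure D4:**
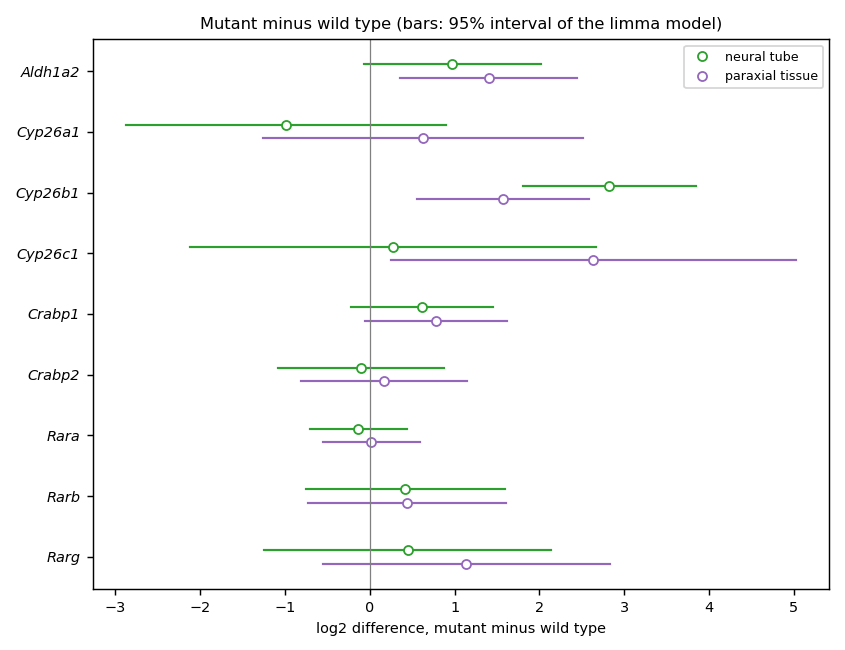
Mutant minus wild type (x axis, log2 units) for the 9 members tested, in neural tube and in paraxial tissue; bars are 95% intervals of the limma model, and no adjusted p was below 0.05. Cyp26b1 in neural tube (2.83) and Cyp26c1 in paraxial tissue (2.63, with a wide interval) lie farthest from 0.

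Whether the genotype difference itself differed between the tissues was tested as an interaction. By limma 0 of 9 members passed, beside 0% of all genes, and 1 of 8 other than Cyp26c1 lay above 0, against 47.4%. That one was Cyp26b1 (1.26 ± 0.38, a larger difference in neural tube; adjusted p = 0.89), and of the 8 it alone had an unadjusted p below 0.05, against 5.17% of all genes. Cyp26a1 stood at -1.61 ± 0.71 (adjusted p = 0.956), with a negative difference in neural tube and a positive one in paraxial tissue.

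Markers of some other cell types moved with genotype in the paraxial samples. All 15 surface ectoderm genes tested were higher in mutant paraxial tissue (median 1.25), as were 10 of 11 intermediate and lateral mesoderm genes (0.91), 10 of 10 endothelial genes (0.65) and 9 of 9 erythroid genes (0.78), while 2 of 16 neuronal genes were (-0.84). Of all genes 53.5% were higher there. The tissue's own somite and paraxial mesoderm genes, each relative to its mean over the arrays, averaged 1.05 and 1.35 in wild-type and 0.81 and 0.68 in mutant paraxial tissue. On that scale gut endoderm and notochord genes averaged -1.43 and -0.83 in wild-type and 0.27 and -0.13 in mutant paraxial tissue. Neural crest genes averaged 0.65 and 0.055 against 0.31 and 0.45. Tail bud and presomitic mesoderm genes averaged -0.19 and -0.51 against -0.13 and -0.54, and neural progenitor genes -0.45 and -1.17 against -0.55 and -1.60. None of these marker genes passed on its own. The summed neuronal signal was 17.5 and 16.5 in wild-type and 16.3 and 16.5 in mutant paraxial tissue (log2), with only wild-type embryo 1 apart from the rest. The summed surface ectoderm signal was 18.00 and 18.16 in wild-type and 18.59 and 18.43 in mutant paraxial tissue, and that of intermediate and lateral mesoderm 15.41 and 15.59 against 16.04 and 16.25 (log2). In these mesoderm genes 9 and 11 of 11 were well above background on the wild-type and 11 on both mutant arrays. Their part in the paraxial values of Cyp26b1, Cyp26c1, Aldh1a2, Rarg and Crabp1 was not tested. In neural tube the median surface ectoderm difference was 0.33 and the median neuronal one -0.60. The summed neuronal signal was 16.89 in mutant neural tube of embryo 1, which had the highest Cyp26b1 reading, against 17.74 to 17.92 on the other 3 neural tube arrays, and its part in that reading was not tested. The Cyp26b1 difference without that array was 2.22, and over 23 other settings it lay between 2.22 and 3.43 with the same sign in 23 and adjusted p between 0.198 and 1.

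The rest of the pathway was read from 3 lists. Among other genes of retinoid metabolism and transport, 17 of 21 were tested, and in the mean over genotypes 4 passed as lower in neural tube and 0 as higher, against 6.01% and 5.94% of all genes. Leaving out Cyp1b1 and Ttr, whose probes passed the filter through 1 group alone, 3 of 15 passed as lower. Dhrs3, which turns retinaldehyde back to retinol, read -1.28 ± 0.16 (limma adjusted p = 0.00502) and Stra6, the membrane receptor for retinol-binding protein, -1.30 ± 0.17 (adjusted p = 0.00549). Adh1, an alcohol dehydrogenase that oxidises retinol, read -2.40 ± 0.38 (adjusted p = 0.00939). Cyp1b1, a P450 enzyme that can oxidise retinoids, was well above background only in mutant paraxial tissue, where it was at least 5.01-fold higher than in mutant neural tube. Since that group alone brought it into the test, its call is no support for a tissue difference. The median of this list was 0.02, with or without those genes.

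Within wild type only Dhrs3 of that list passed, as lower (-1.45 ± 0.23; limma adjusted p = 0.0308), against 1.68% of all genes in that direction. Within mutants 5 passed, all lower in neural tube, against 3.16% of all genes in that direction, and 4 of 15 without Cyp1b1 and Ttr. They were Cyp1b1, Stra6 (-1.54 ± 0.24; adjusted p = 0.019), Adh1 (-3.31 ± 0.53; adjusted p = 0.0208), Dhrs3 (-1.11 ± 0.23; adjusted p = 0.0408) and Rbp7, a cellular retinol-binding protein. Between genotypes none passed. The smallest p values were those of Rbp7 (-1.11 ± 0.30; limma adjusted p = 0.921) and Rbp2 (-1.30 ± 1.01; adjusted p = 0.921) in neural tube. In paraxial tissue they were those of Cyp1b1, at least 5.63-fold higher in mutants (limma adjusted p = 0.996), and Adh1 (1.98 ± 0.85; adjusted p = 0.996). In the interaction they were those of Cyp1b1 (adjusted p = 0.639), at background in 3 of the 4 groups, and Rbp7 (-0.79 ± 0.26; adjusted p = 0.932).

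Of the receptors' partners and co-regulators all 21 were tested, and 1 passed in the mean over genotypes, against 11.9% of all genes. Nrip1, a co-repressor that binds liganded receptors, was lower in neural tube (-0.63 ± 0.13; limma adjusted p = 0.0218). The list's median was 0.01. The partner receptors Rxra (0.10 ± 0.17), Rxrb (-0.06 ± 0.11) and Rxrg (-0.30 ± 0.14) did not pass. None of the 21 passed within a genotype, where Nrip1 read -0.75 ± 0.18 in wild type and -0.52 ± 0.18 in mutants. The next smallest p values there were those of the coactivator Ncoa3 in wild type (0.57 ± 0.24) and the deacetylase Hdac2 in mutants (0.46 ± 0.22). Between genotypes the smallest p values were those of Nrip1 (0.63 ± 0.29) and Ncoa1 (-0.56 ± 0.28) in neural tube and of Hdac1 (0.58 ± 0.24) and Ncoa1 (-0.47 ± 0.28) in paraxial tissue, and those of Nr2c2 (0.51 ± 0.31) and Ncor1 (0.34 ± 0.22) in the interaction. Their limma adjusted p values were 0.921, 0.996 and 0.963 in these 3 comparisons.

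Genes known to respond to retinoic acid made up the third list. It was not sorted by whether retinoic acid raises or lowers a gene. Its counts and medians therefore do not measure the size or direction of a retinoic acid response. Of 29 listed, 28 were tested; 12 passed as higher and 1 as lower in the mean over genotypes, against 5.94% and 6.01% of all genes, and the list's median was 0.39. Among them Pax6 (2.52 ± 0.30; limma adjusted p = 0.0043) and Olig2 (2.85 ± 0.39; adjusted p = 0.00593) are progenitor transcription factors of the spinal cord. Gbx2 (1.62 ± 0.21; adjusted p = 0.00512) is a homeobox factor. Nedd9, a docking protein, had the smallest p of all genes (limma adjusted p = 0.000622). It was not well above background in paraxial tissue, so it was at least 3.14-fold higher in wild-type and at least 2.98-fold higher in mutant neural tube. Its probe passed the filter through the neural tube groups alone, so its call is no support for a tissue difference. Zfp703, a zinc finger repressor, was the gene that passed as lower (-0.62 ± 0.13; adjusted p = 0.0256). The list shares 3 genes, Olig2, Pax6 and Sox2, with the neural progenitor markers, all 14 of which passed as higher in neural tube. The other 9 that passed as higher include 7 Hox genes of the anterior groups (Hoxa2, Hoxa3, Hoxa5, Hoxb1, Hoxb2, Hoxb4 and Hoxd4). The probe of Hoxb1, like that of Nedd9, passed the filter through the neural tube groups alone, so its call is no support either. Both genes are among the 12 counted as higher.

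**Figure D5:**
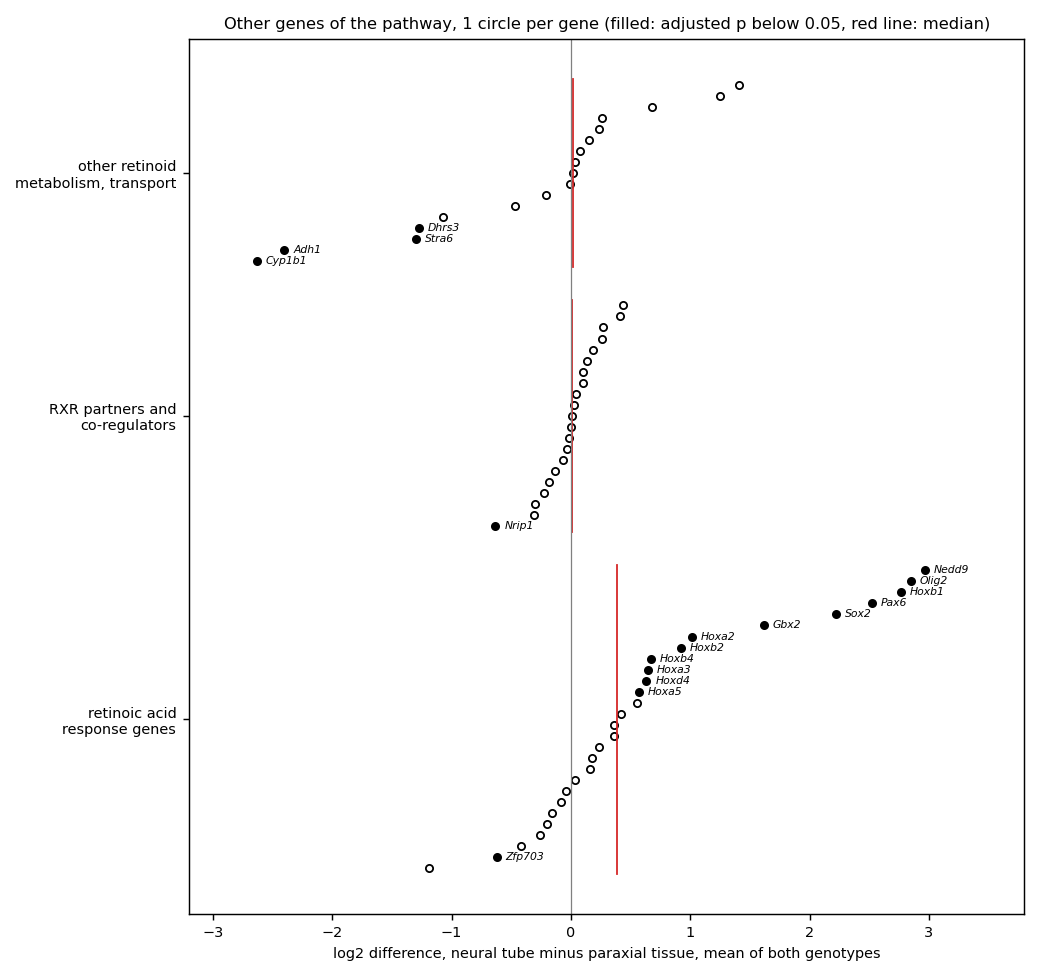
Neural tube minus paraxial tissue in the mean of both genotypes (x axis, log2 units) for the other pathway genes tested, 1 circle per gene and sorted within 3 lists; filled circles passed and are named, and red lines mark list medians. The response genes have a median of 0.39 and reach 2.96 (Nedd9), and the named genes of metabolism and transport all lie below -1.2. The probes of Nedd9 and Hoxb1 passed the filter through the neural tube groups alone, and that of Cyp1b1 through mutant paraxial tissue alone. Their filled circles are no support for a tissue difference.

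Within wild type 4 response genes passed as higher in neural tube, against 0.771% of all genes, and within mutants 6 did, against 2.67%. In wild type these were Nedd9, Olig2 (3.21 ± 0.54; limma adjusted p = 0.0377), Hoxb2 (1.15 ± 0.22; adjusted p = 0.0499) and Hoxb1, which was at least 5.76-fold higher since it was not well above background in wild-type paraxial tissue. In mutants they included Nedd9, Pax6 (2.99 ± 0.43; adjusted p = 0.0158), Gbx2 (1.80 ± 0.29; adjusted p = 0.0211) and the progenitor factor Sox2 (2.58 ± 0.43; adjusted p = 0.0228). The probes of Nedd9 and Hoxb1 passed the filter through the neural tube groups alone, so their calls are no support for a tissue difference. The 4 in wild type include both genes, and the 6 in mutants include Nedd9. Between genotypes no response gene passed by limma. In neural tube 19 of 27 other than Cdx1 were above 0, against 49.2% of all genes, with a median of 0.21. The growth factor Fgf17, among those with the smallest p values, read -0.42 ± 0.24 (limma adjusted p = 0.921). In paraxial tissue 17 of 27 other than Cdx1 were above 0, against 53.5% of all genes, with a median of 0.07. The smallest p values there were those of Hoxb1 and of Cdx1, a caudal homeobox gene. Hoxb1 was at least 2.7-fold higher in mutants but well above background on 1 of 2 mutant arrays. Cdx1 read 3.49 ± 1.49 (limma adjusted p = 0.996), and its probe passed the filter through mutant paraxial tissue alone. In the interaction the smallest p values were those of Nedd9 (0.53 ± 0.21, limma adjusted p = 0.956) and Hoxb1 (-2.34 ± 0.98, adjusted p = 0.956). Both were at background in part of the groups.

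Genes with the profile most like a member over the 8 arrays were looked up among 14921 genes tested that ranged over at least 1 log2 unit, by Pearson's r, as a description of arrays that share embryos. For Aldh1a2 they were Tnfrsf10b (0.994) and Fam185a (0.981), for Rarg Rcn3 (0.989) and Hspb8 (0.987), and for Crabp2 Frat1 (0.987) and a transcript without a gene name (0.984). For Cyp26b1 they were a probe of an unnamed intergenic transcript (0.980) and Tcea1 (0.977). For Cyp26a1 they were Gm498 (0.961) and Crym (0.95), and for Cyp26c1 Sprr2f (0.970) and Fam20a (0.968). For Rara they were Lrp2 (0.968) and Llgl1 (0.963), for Crabp1 Jpt2 (0.962) and Alpl (0.952), and for Rarb Ect2l (0.936) and an unnamed probe (0.907). Members were left out of that search.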

How the data were processed

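RNA from laser-captured tissue was labelled with Cy5 and hybridised to 1-colour Agilent arrays, 1 array per tissue and embryo. The authors deposited each array's scanner intensity output, made with Agilent Feature Extraction 11.0.1.1 per the submitters' processing notes, and a value table. The values of that table were processed intensities, not logarithms. They differed from the scanner's processed signal by at most 0.497% and served, after log2, as an alternative. The intensity was background-subtracted by the scanner software per the file headers. Control spots (3671 of 62976) and outlier spots were left out, spots of a probe were averaged, log2 processed signals were scaled to each array's 75th percentile, and among probes above background in each replicate of any group the brightest stood for its gene. Symbols came from RefSeq accessions (26045 probes), from symbols (3200) or as in the file (26419). limma 3.58.1 in R 4.3.3 fitted 4 group means over the 8 arrays, the embryo being a random block (correlation 0.603), and p values were adjusted by Benjamini and Hochberg over 28939 genes, with a threshold of 0.05. The labels name the embryo of each array, which pairs the tissues, and arrays of the same embryo number also share a slide row, so that embryo and row cannot be told apart within a genotype. Deviations from the group means of an embryo's 2 tissues correlated across genes at 0.562 in wild type and 0.607 in mutants. Gene symbols of members were matched in RefSeq promoter windows. Alternatives covered scaling, background correction, filters, probe choice, the block, moderation, each array or embryo left out, and, added after seeing the data, each probe tested alone. Members, lists and named genes (all members, Gmnn, up to 4 passing genes per list and comparison or the 2 with the smallest p, and the 2 most alike in profile) were chosen with earlier results of these data known. The values of 1 gene that this rule names are not reported here. Data were also simulated for the 28939 genes, with 50 genes changed at each size and the spreads shuffled among genes. There 52% of changes of 1 log2 unit and 88% of 2 were recovered in the mean tissue difference, and 0% and 40% in the neural tube genotype difference. In the real data 3458 genes passed the mean tissue difference, far more than were changed there. These shares are therefore not the power of the real comparisons. Only 2 arrays per group limit the precision.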

Additional observations from a re-analysis of the deposited data

How the results depend on the processing

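Of the members, the signs of Aldh1a2, Rarg, Crabp2 and Rara in the mean tissue difference and of Cyp26b1 between genotypes stayed the same under every alternative run. No member passed between genotypes or in the interaction under any of them. The counts of passing tissue differences moved with the settings, and the cause was not tested.

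Members that passed the tissue difference within mutants, 1 as reported, numbered 0 with quantile scaling, 4 with normexp background correction, 0 with no filter on dim probes, 2 with only probes well above background on all 8 arrays, and 2 with trend and robust moderation. Within wild type 1 passed with normexp in place of 0, and in the mean over genotypes 1 in place of 4 with no filter on dim probes. Among all genes, 1510 in place of 710 passed within wild type with normexp, 1089 with trend and robust moderation and 362 with no filter. With no filter 610 in place of 1689 passed within mutants and 2298 in place of 3458 in the mean over genotypes. In the interaction 4 genes passed with cyclic loess scaling in place of 0.

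The pairing of tissues by embryo, used as a block, comes from the labels. Without it 4 genes passed within wild type, 0 within mutants (2858 with an unadjusted p below 0.05) and 593 in the mean over genotypes, and of the members 0 within mutants and 0 in the mean. When the replicate block was instead a fixed term per embryo, which leaves no genotype difference to estimate, the genes were 51, 211 and 1972, and the members 0 within mutants and 2 in the mean (Aldh1a2 and Rarg). Wild-type and mutant embryos of the same number share that number and a row of the slide, with correlations of same-numbered deviations of 0.291 in both tissues. With that replicate number as a fixed term added, 414 genes passed within wild type, 1025 within mutants, and of the members 0 within mutants and 2 in the mean.

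With 1 array or 1 embryo left out, passing genes ranged from 31 (without wild-type embryo 2) to 2682 (without wild-type neural tube array 1) within wild type, from 0 (without mutant neural tube array 2 or mutant embryo 2) to 3199 (without a wild-type paraxial array) within mutants, and from 794 (without mutant embryo 2) to 6468 (without wild-type neural tube array 1) in the mean. Between genotypes they ranged from 0 to 0 in neural tube, 0 to 17 (without mutant paraxial array 1) in paraxial tissue and 0 to 32 (without wild-type paraxial array 2) in the interaction. Members ranged from 0 to 1, 0 to 4 and 0 to 5 in the 3 tissue comparisons. A group left with 1 array was assumed to vary like the others, and fits without an embryo used the correlation of the full fit.

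Values that turned sign had not passed. Cyp26a1 within wild type read -0.041 with quantile, -0.00012 with median, -0.079 with cyclic loess scaling and -0.251 with normexp. Crabp2 in paraxial tissue between genotypes read -0.019 with quantile and -0.027 with cyclic loess scaling, Rarb in the interaction 0.027 with normexp, and Rara in neural tube between genotypes 0.051 by its other probe. With 1 array or embryo left out, the tissue difference within wild type ranged from -0.329 to 0.344 for Cyp26a1, from -1.11 to 0.907 for Cyp26c1 and from -0.104 to 0.655 for Rarb. Within mutants it ranged from -0.386 to 0.609 for Cyp26b1 and from -0.35 to 0.864 for Rarb, and in the mean from -0.037 to 0.57 for Rarb. Between genotypes in neural tube the ranges were -0.53 to 1.07 for Cyp26c1, -0.314 to 0.041 for Rara, -0.659 to 1.55 for Rarg and -0.549 to 0.341 for Crabp2. In paraxial tissue they were -0.297 to 1.56 for Cyp26a1, -0.144 to 0.18 for Rara, -0.087 to 0.961 for Rarb and -0.281 to 0.617 for Crabp2. In the interaction they were -0.883 to 0.027 for Aldh1a2, -0.626 to 0.588 for Rarb, -1.57 to 0.19 for Rarg, -0.401 to 0.076 for Crabp1 and -0.774 to 0.231 for Crabp2. The call of Rara in the mean was also lost with median scaling (0.0519), normexp (0.152) and the mean of its probes (0.0592), and without a filter those of Rara, Crabp2 and Aldh1a2 (0.0814, 0.0617 and 0.0532), as limma adjusted p values. Signal near background limits Cyp26c1, Aldh1a3 and 1 mutant neural tube reading of Cyp26a1.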
